A study of Homo sapiens with 29 samples.

Results

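The HOX cluster genes are the genes of the HOXA, HOXB, HOXC and HOXD clusters, and they were taken as every gene symbol made of HOX, a cluster letter from A to D and a paralogue number. There were 39 such symbols among the 28266 genes of the count table: 11 in HOXA on chromosome 7, 10 in HOXB on chromosome 17, 9 in HOXC on chromosome 12 and 9 in HOXD on chromosome 2. Of these, 16 had enough counts to be tested, namely 6 HOXA, 7 HOXB and 3 HOXC genes, and 23 did not, among them every HOXD gene.

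HOX genes encode transcription factors that bind DNA through a homeodomain and set the position of cells along the head-to-tail axis of the embryo. Genes with the same paralogue number sit at matching places in the clusters and are the most alike in sequence, with low numbers used towards the head and high numbers towards the tail. Adult fibroblasts keep much of this positional code, so that the set of HOX genes a fibroblast expresses reflects where in the body it came from. HOX proteins bind DNA together with PBX, MEIS and PKNOX partners, and the clusters are held silent by Polycomb proteins and kept active by Trithorax proteins such as KMT2A, and SWI/SNF remodelers count among the factors that oppose Polycomb.

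RNA was sequenced from IMR90 ER:RAS cells, human lung fibroblasts of an established line into which a retrovirus had placed a fusion of the estrogen receptor with the oncogenic RAS mutant RASG12V. The fusion is switched on with 4-hydroxytamoxifen (4OHT), which drives the cells into senescence, and DMSO was the vehicle. The 3 groups were DMSO_siNT (growing cells with a non-targeting siRNA), 4OHT_siNT (senescent cells with a non-targeting siRNA) and 4OHT_siSMARCA4 (senescent cells with an siRNA against SMARCA4). SMARCA4, also called BRG1, is an ATPase of the SWI/SNF complex. Each group had 6 libraries, and RNA was taken 7 days after induction. All 3 groups were of this line, which carries the fusion. Whether every library expressed the fusion was not tested, and a control library with low ESR1 and HRAS is described below. In each group 2 siRNAs (number 2 and number 4) were used. Sample titles end in a set, written as a number followed by V or VM with no meaning given, and libraries are named below by siRNA number and set, so that 4-2V is siRNA 4 in set 2V. Every 4OHT_siNT library was of a VM set. In DMSO_siNT 3 were V and 3 were VM, and among the knockdown libraries 3 were V, 2 were VM and 1, called the unlabelled library, had a set that fits no title of its siRNA. Nothing states that libraries came from separate cultures, so the p-values measure the spread between libraries, which may in part be technical.

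Counts per library ranged from 9657309 to 18039313. Levels are given in counts-per-million (CPM), and fold changes and adjusted p-values come from the edgeR quasi-likelihood test with Benjamini-Hochberg adjustment over 13136 genes. SMARCA4 averaged 301 ± 20.9 CPM in 4OHT_siNT and 99.0 ± 27.6 CPM in 4OHT_siSMARCA4 (SD, n = 6), a log2 fold change of -1.61 (adjusted p = 1.3e-06), and the groups did not overlap. One control library stood apart. In DMSO_siNT 4-2V, ESR1 and HRAS, the genes whose symbols match the ends of the transgene, were at 29.5 and 436 CPM, against at least 1034 and 2165 CPM in the other 5 DMSO_siNT libraries. Its HOX genes summed to 771 CPM, whereas the other 5 lay between 375 and 465 CPM, and fold changes over DMSO_siNT are given below with and without it. Leaving it out also raised the share of all tested genes called, from 52.8% to 58.3% for 4OHT_siNT over DMSO_siNT, from 10.6% to 24.6% for the knockdown in senescent cells and from 50.5% to 59.1% for 4OHT_siSMARCA4 over DMSO_siNT. The fibroblast label matched the collagen genes: COL1A1 averaged 10692 CPM in DMSO_siNT, and PDGFRA and DCN were detected in every library. The lung factors TBX5 and FOXF1 averaged 26.6 and 264 CPM in DMSO_siNT, and TCF21 and TBX4 averaged 21.7 and 0.878 CPM. The sum of these 4 ranged from 229 to 554 CPM over the DMSO_siNT libraries, with a median of 261 CPM. Without 4-2V, TBX5 and TCF21 were called lower in 4OHT_siNT than in DMSO_siNT (log2 fold changes -1.10 and -1.07). They were also called lower in 4OHT_siSMARCA4 than in 4OHT_siNT (-0.80 and -0.54). FOXF1 was called higher in both contrasts without 4-2V (0.64 and 0.28), and in neither of them with all libraries. Of the markers of other cells, CDH1, NKX2-1, CDH5 and PTPRC never exceeded 5 counts in a library, while EPCAM reached 19 counts, PECAM1 14 and VWF 85, and KRT18 and CD68, which are also found in fibroblasts, averaged 63.2 and 52.8 CPM in DMSO_siNT. VWF, an endothelial gene, was called higher in 4OHT_siNT than in DMSO_siNT (log2 fold change 1.23, from 1.51 to 3.54 CPM), and KRT18, a keratin, was called lower in 4OHT_siSMARCA4 than in 4OHT_siNT (-0.51, from 61.0 to 42.8 CPM), both with groups that did not overlap. Fibroblast markers moved with the groups as well: 5 of 8 were called lower in 4OHT_siNT than in DMSO_siNT (28.9% of all tested genes) and 6 of 8 were called lower in 4OHT_siSMARCA4 than in 4OHT_siNT (5.65% of all), which became 7 of 8 in both without 4-2V. The sum of the 8 ranged from 7766 to 24932 CPM in DMSO_siNT, from 8896 to 12510 CPM in 4OHT_siNT and from 2276 to 5338 CPM in 4OHT_siSMARCA4. For 4OHT_siNT over DMSO_siNT without 4-2V, DCN was at a log2 fold change of -5.15 and PDGFRA, the 1 of the 8 not called, at 0.05. The part of these markers in the HOX results was not tested. In such bulk RNA, fewer cells with a transcript and less of it per cell cannot be told apart.

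Which HOX genes were expressed went largely with the paralogue number and the cluster. All 16 tested genes had a paralogue number from 1 to 8. Outside HOXD, HOXA6, HOXB1 and HOXC5 also have such a number but were not tested. They had at most 4, 0 and 13 counts in a library. The 16 genes numbered 9 to 13 never exceeded 13 counts in a library, and all of them together gave 226 of the 95501 HOX counts. HOXC9, with 147 of those counts, was the one among them seen in all 18 libraries. The 9 HOXD genes gave 4 counts in the 18 libraries together, 2 from HOXD3 and 2 from HOXD8, and the other 7 were at 0 throughout. HOXB1 and HOXC11 were the other HOX genes with no count in any library, which made 9 with those 7. A count of 0 in a library allowed a level of up to 0.166 to 0.311 CPM (3 counts), which covers counting error only. HOXA10, which patterns the uterus and limb, and HOXA13 and HOXB13, the most tail-ward members of their clusters, had at most 3, 1 and 1 counts in a library.

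Per kilobase of exon the HOXB cluster carried most of the HOX RNA, with 84.9% in DMSO_siNT, 94.4% in 4OHT_siNT and 92.9% in 4OHT_siSMARCA4. HOXA followed with 11.7%, 4.18% and 5.67%, and HOXC held 3.42%, 1.46% and 1.48%. Without library 4-2V the DMSO_siNT shares of HOXB, HOXA and HOXC were 87.0%, 10.3% and 2.73%. The 3 genes with the highest level per kilobase in each group were HOXB5, HOXB2 and HOXB6, of which HOXB5 is a regulator of lung and gut mesenchyme, HOXB2 patterns the hindbrain and HOXB6 is expressed in lateral plate mesoderm. In 4OHT_siNT they averaged 59.2 ± 6.37, 55.7 ± 5.96 and 46.7 ± 3.44 CPM per kilobase (SD, n = 6). HOXB5 and HOXB2 were thus closer to each other than their SD, and all 3 stood above HOXB7, the next in order at 18 ± 3.08 CPM per kilobase. HOXB3, a broadly expressed gene of the anterior cluster, came next with 12.3 ± 1.46, ahead of HOXA5 with 5.14 ± 0.85 and HOXB4 with 4.43 ± 0.46 CPM per kilobase, and the last pair was again within their SD. In DMSO_siNT the order from HOXB5 to HOXB7 was not resolved, since HOXB5 averaged 53.3 ± 19.6 and HOXB7 36.2 ± 42.4 CPM per kilobase, both spread by library 4-2V.

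**Figure D1:**
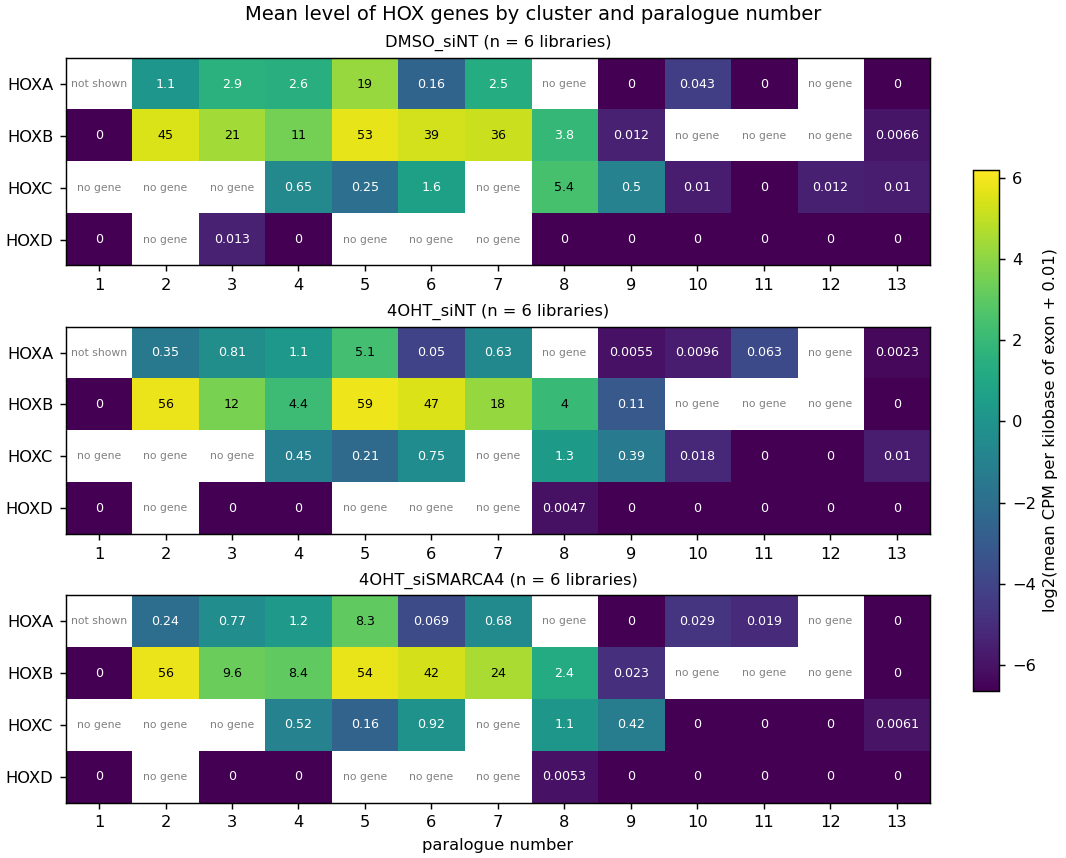
Mean level of HOX genes in the 3 groups, by cluster (rows) and paralogue number (columns), in CPM per kilobase of exon; the number in each square is the mean over 6 libraries and the colour is its log2 after adding 0.01. HOXB2, HOXB3, HOXB5, HOXB6 and HOXB7 hold the 5 highest values in each group, and the squares of HOXD and of numbers 9 to 13 are at or near 0, with HOXC9 the highest of them at 0.50 in DMSO_siNT.

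Because paralogues share the homeobox, the 180 bases that encode the homeodomain, its sequence decides whether a short read can be given to 1 HOX gene. Homeoboxes were compared in the GRCh38 genome (hg38, with GENCODE gene models), since HOXB4, HOXA4 and HOXA5 carry results below. HOXA4 differed from HOXB4 at 26 of 180 bases and HOXC4 at 33, with longest identical stretches of 26 and 17 bases. HOXA5 differed from HOXB5 at 32 bases, with a longest identical stretch of 23. Over all 42 pairs of HOX genes with the same number, homeoboxes were 69.4% to 90.6% identical (median 81.7%), and the longest stretch any pair shared was 51 bases, shorter than the 72-base reads. Over the whole exonic sequence, a 72-base stretch shared with another HOX gene was found for HOXB6 (4.11% of its stretches, shared with HOXB3) among the tested genes. Overlap of gene models was the larger limit. Exons of antisense genes covered 74.8% of the HOXA7 exons, 20.8% of HOXA3, 18.2% of HOXB6, 15.8% of HOXA4 and 11.9% of HOXB3. Other genes on the same strand covered 32.1% of HOXA4 and 13.2% of HOXA3, and HOXB3 exons on the same strand covered 11.2% of HOXB6. Whether the counting used strand is not given in the sources used here, so reads of these genes could be split with their neighbours, whereas HOXA2, HOXA5, HOXB7, HOXB8, HOXC4, HOXC6 and HOXC8 had no such overlap in their main transcripts and HOXB4 had 2.20% on the same strand.

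The comparison of 4OHT_siNT with DMSO_siNT asks how RAS-induced senescence changed the HOX code. Of the 16 tested HOX genes, 9 fell and 1 rose, where 52.8% of all tested genes were called (28.9% lower and 23.9% higher). Those that fell were HOXA2, HOXA3, HOXA4, HOXA5, HOXA7, HOXB3, HOXB4, HOXC6 and HOXC8, and the one that rose was HOXB2. The median log2 fold change was -1.04 over the 16 HOX genes and -0.05 over all tested genes. The groups did not overlap for 9 of the 16, against 33.8% of all tested genes. Without 4-2V, 9 were lower and 3 higher, with 58.3% of all tested genes called, and the median over the HOX genes was -0.92.

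**Figure D2:**
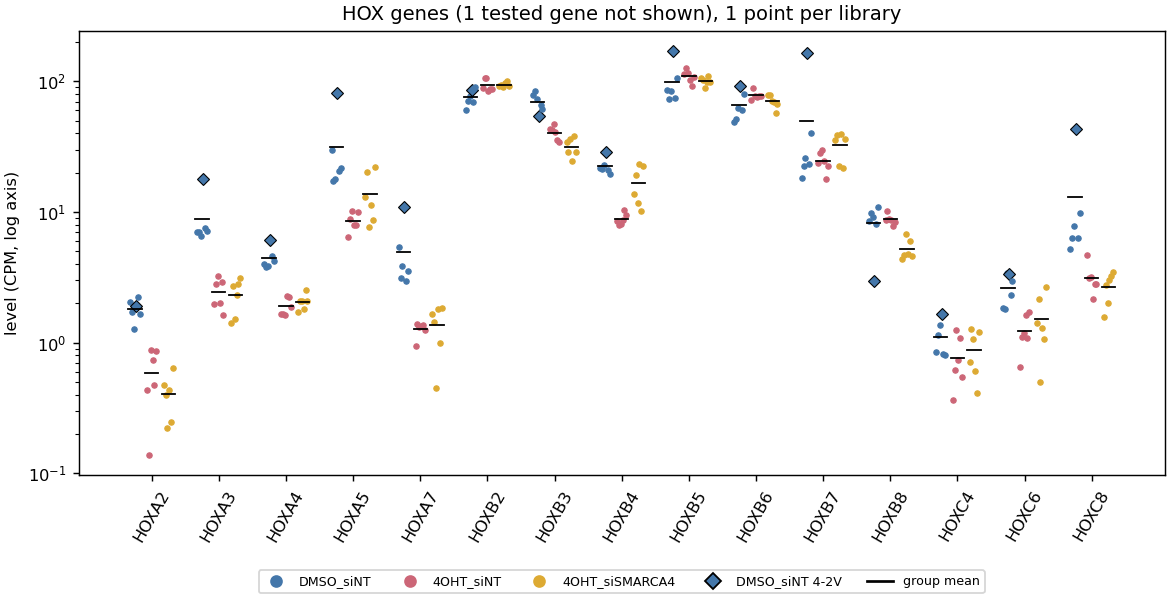
Level in CPM (log axis) of the tested HOX genes except 1, 1 point per library, with the group mean as a bar; the diamond is the library DMSO_siNT 4-2V. The DMSO_siNT points of HOXA2, HOXA3, HOXA4, HOXA5, HOXA7, HOXB3, HOXB4, HOXC6 and HOXC8 lie above every 4OHT_siNT point, and the diamond lies far above the other DMSO_siNT points for HOXB7 (166 CPM) and HOXC8 (43.4 CPM).

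In the HOXA cluster, 5 genes fell. HOXA5, a regulator of lung development, had a lowest, median and highest level of 17.5, 21.1 and 81.2 CPM in DMSO_siNT and of 6.48, 8.39 and 10.2 CPM in 4OHT_siNT. Every control library was above every senescent one. Its log2 fold change was -1.86 ± 0.36 (SE, adjusted p = 0.00023), or 27.5% of the control level, and -1.32 (adjusted p = 4.9e-05) without DMSO_siNT 4-2V. HOXA3, which acts in neck and pharyngeal arch development, lay at 6.57, 7.10 and 17.9 CPM in DMSO_siNT and at 1.64, 2.42 and 3.25 CPM in 4OHT_siNT. The groups were apart, with a log2 fold change of -1.84 ± 0.28 (adjusted p = 1.5e-05) and of -1.52 without 4-2V. HOXA7 ran from 2.98 over a median of 3.71 to 11.0 CPM in DMSO_siNT and from 0.947 over 1.33 to 1.38 CPM in 4OHT_siNT. Its log2 fold change was -1.95 ± 0.34 (adjusted p = 8.2e-05), or -1.57 without 4-2V. Here most of its exons are overlapped by the antisense gene HOXA-AS3, itself at no more than 14 counts in a library.

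HOXA4 and HOXA2 were at -1.10 and -1.60 without that library, close to their values with it. HOXA4 had 3.79, 4.11 and 6.10 CPM in DMSO_siNT and 1.63, 1.77 and 2.30 CPM in 4OHT_siNT, with a log2 fold change of -1.21 ± 0.17 (adjusted p = 5.1e-06). HOXA2, which patterns the hindbrain and the second pharyngeal arch, was low, at 1.29, 1.82 and 2.24 CPM in DMSO_siNT and 0.138, 0.610 and 0.887 CPM in 4OHT_siNT. Its log2 fold change was -1.62 ± 0.31 (adjusted p = 0.00022), and again no library of one group reached the other.

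Of the HOXA genes that fell, RefSeq windows of the promoter were at hand for HOXA2, HOXA3, HOXA4 and HOXA7, and those of HOXA2 (chr7:27102684-27102933), HOXA4 (chr7:27130758-27131007) and HOXA7 (chr7:27156676-27156925) are shown because each of these genes has a single window. HOXA3 has 7 windows at as many starts, of which 1 holds CCAAT and 4 hold a GC box. Each is the 250 bases before the RefSeq start of the gene on the minus strand of GRCh38.p14, and capitals mark matches on either strand to CCAAT, to the GC box GGGCGG or to TGATNNAT, a motif bound by pairs of PBX and HOX proteins.
HOXA2: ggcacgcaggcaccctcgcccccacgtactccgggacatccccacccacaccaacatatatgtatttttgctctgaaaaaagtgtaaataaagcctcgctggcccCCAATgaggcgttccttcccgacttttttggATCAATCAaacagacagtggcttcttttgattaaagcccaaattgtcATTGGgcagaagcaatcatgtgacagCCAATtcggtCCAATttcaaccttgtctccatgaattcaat
HOXA4: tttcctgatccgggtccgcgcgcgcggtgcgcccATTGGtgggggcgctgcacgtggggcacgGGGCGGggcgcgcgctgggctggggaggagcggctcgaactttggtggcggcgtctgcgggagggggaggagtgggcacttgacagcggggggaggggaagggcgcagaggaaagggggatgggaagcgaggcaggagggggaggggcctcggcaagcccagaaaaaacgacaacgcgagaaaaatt
HOXA7: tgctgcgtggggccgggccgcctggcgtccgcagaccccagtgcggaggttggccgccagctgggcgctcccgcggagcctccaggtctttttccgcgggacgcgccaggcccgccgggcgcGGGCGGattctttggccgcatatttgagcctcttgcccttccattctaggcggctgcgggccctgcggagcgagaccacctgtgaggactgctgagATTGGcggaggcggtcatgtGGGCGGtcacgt

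The HOXA2 window held 4 CCAAT matches and 1 TGATNNAT match and no GC box, with 47.2% G and C. The windows of HOXA4 and HOXA7 held 1 CCAAT match each, 1 and 2 GC boxes, and 70.0% and 70.8% G and C. In RefSeq windows that also include the 50 bases after the start, CCAAT was found in 17 of 26 HOX windows (65.4%) and in 34.6% of all 34943 windows, TGATNNAT in 3 of 26 and 7.42%, and GGGCGG in 13 of 26 and 44.9%. TAATTA, the core that homeodomains bind, was in 2 of the 26 (4.85% of all), TATAAA in 5 (11.6% of all), and both TGANTCA, the AP-1 motif, and AGGTCA, a site for retinoic acid receptors, were in 0 (7.72% and 13.8% of all). The 26 windows belonged to 20 of the 39 HOX genes, 5 of them tested, and a match to these letters is a description and not a bound site.

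In the HOXB cluster, HOXB4 and HOXB3 fell, HOXB2 rose, and HOXB5 to HOXB8 did not pass the test. HOXB4, known for expanding blood stem cells, had 19.5, 21.6 and 28.7 CPM in DMSO_siNT and 8.03, 8.60 and 10.4 CPM in 4OHT_siNT. The groups were far apart and its log2 fold change of -1.34 ± 0.18 (adjusted p = 4e-06) had the lowest adjusted p of the 16 (-1.26 without 4-2V). HOXB3 had 54, 70.1 and 84.1 CPM in DMSO_siNT and 34.3, 41.5 and 47.3 CPM in 4OHT_siNT, again without overlap, with a log2 fold change of -0.78 ± 0.13 (adjusted p = 3.8e-05), or -0.84 without 4-2V. HOXB2 was the exception in direction, with 60.3, 74.1 and 90.9 CPM in DMSO_siNT and 85.1, 88.7 and 107 CPM in 4OHT_siNT. The ranges overlapped, the log2 fold change was 0.31 ± 0.10 (adjusted p = 0.015), and the call was lost with the VM sets alone (log2 fold change 0.24, adjusted p = 0.072), with siRNA number 4 alone (0.10, adjusted p = 0.62), with the set block (0.28, adjusted p = 0.14) and with upper-quartile scaling (0.22, adjusted p = 0.071). Without 4-2V it was 0.35 (adjusted p = 0.0037).

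The highly expressed HOXB5 and HOXB6 had levels in the same range in both groups. HOXB5 was at 73.0, 85.3 and 170 CPM in DMSO_siNT and 93.0, 111 and 127 CPM in 4OHT_siNT, a log2 fold change of 0.15 with a 95% interval from -0.19 to 0.49. HOXB6 was at 48.7, 61.6 and 92.9 CPM and then 72.7, 76.9 and 89.4 CPM, a log2 fold change of 0.24 (interval -0.04 to 0.53). In both genes the highest control value was 4-2V, and without it both were called higher, HOXB5 by 0.38 (adjusted p = 0.0024) and HOXB6 by 0.37 (adjusted p = 0.0089). HOXB7, a gene often raised in tumours, was at -1.0 ± 0.43 (adjusted p = 0.057) with that library and at -0.09 (adjusted p = 0.72) without it. HOXB8, whose overexpression blocks the maturation of myeloid cells, was at 0.08 ± 0.20, and at -0.08 (adjusted p = 0.63) without 4-2V.

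In HOXC, HOXC8 and HOXC6 fell and HOXC4 was at -0.49 ± 0.32 (adjusted p = 0.21), or -0.36 without 4-2V. HOXC8, a gene of the thoracic region, had 5.20, 7.10 and 43.4 CPM in DMSO_siNT and 2.15, 2.96 and 4.66 CPM in 4OHT_siNT. Its log2 fold change of -2.05 ± 0.45 (adjusted p = 0.00075) was the lowest of the 16 and depended on 1 library: it was -1.18 (adjusted p = 8.3e-05) without 4-2V. HOXC6 had 1.81, 2.65 and 3.43 CPM in DMSO_siNT and 0.655, 1.14 and 1.72 CPM in 4OHT_siNT, with no overlap and a log2 fold change of -1.08 ± 0.32 (adjusted p = 0.0082), a call that was lost with siRNA number 4 alone (adjusted p = 0.077). Without 4-2V it was -1.01 (adjusted p = 0.012).

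**Figure D3:**
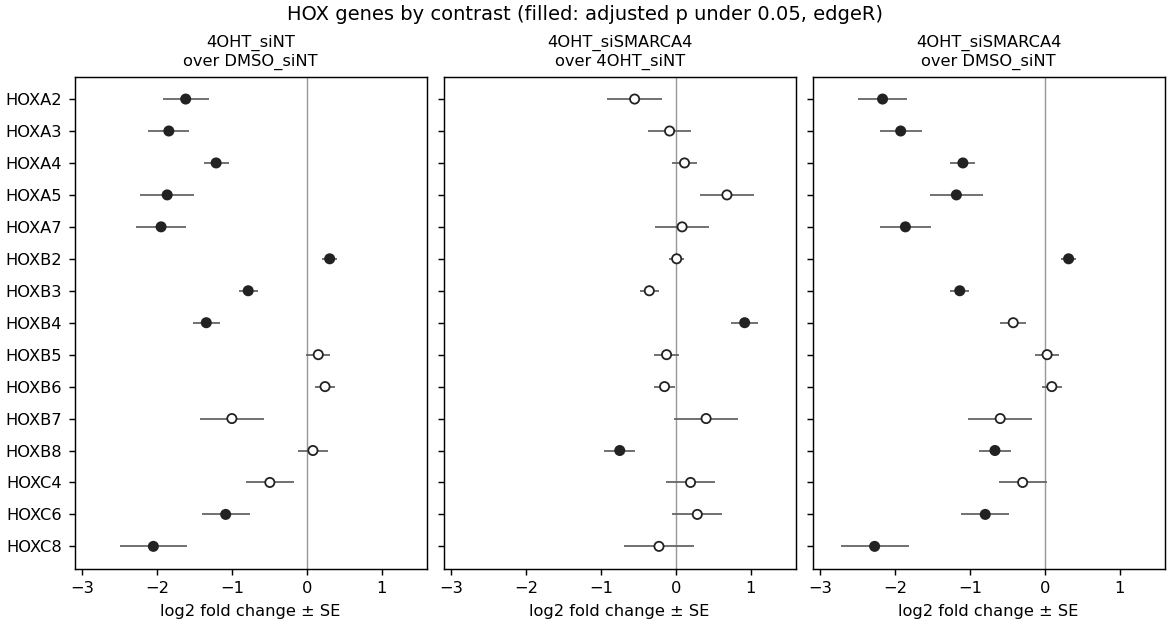
Log2 fold change (points) with its standard error (bars) of the tested HOX genes except 1 in the 3 contrasts; filled points passed an adjusted p of 0.05 in edgeR. In the left panel 9 filled points lie below 0 and HOXB2 lies above it at 0.31, and in the middle panel HOXB4 (0.92) and HOXB8 (-0.75) are filled.

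Genes with the same paralogue number can be set side by side, though the differences between them were not tested. Both tested genes of number 3, HOXA3 and HOXB3, fell. In number 4, HOXA4 and HOXB4 fell, at log2 fold changes of -1.21 and -1.34, and HOXC4 was at -0.49. For number 2, HOXA2 was at -1.62 and HOXB2 at 0.31, and for number 5, HOXA5 was at -1.86 and HOXB5 at 0.15. For number 6, HOXC6 was at -1.08 and HOXB6 at 0.24, and for number 8, HOXC8 was at -2.05 and HOXB8 at 0.08. For number 7, HOXA7 was at -1.95 ± 0.34 and HOXB7 at -1.0 ± 0.43, or at -1.57 and -0.09 without 4-2V.

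Library 4-2V itself had a HOX profile unlike that of the other 5 DMSO_siNT libraries. HOXB7 was at 166 CPM in it and at 26 ± 8.34 CPM in the other 5 (SD), a ratio of 6.39. HOXC8 was 43.4 against 7.11 ± 1.79 CPM (ratio 6.10), HOXA5 81.2 against 21.5 ± 5.0 (3.77), HOXA7 11.0 against 3.79 ± 0.972 (2.90) and HOXA3 17.9 against 7.06 ± 0.353 CPM (2.54). HOXB8 went the other way, with 2.99 against 9.29 ± 1.09 CPM. The higher genes came from all 3 expressed clusters. Its low ESR1 and HRAS moved with these values, and their part was not tested.

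**Figure D4:**
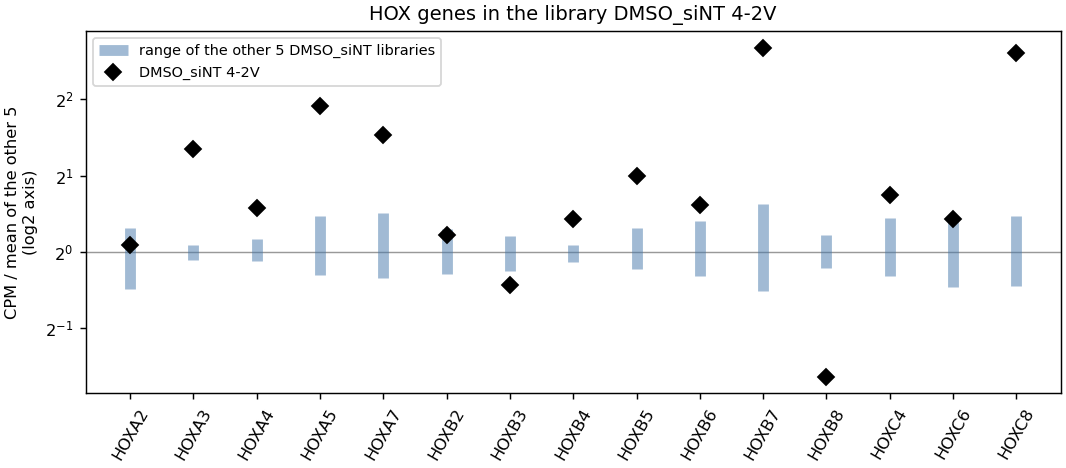
Level of the tested HOX genes except 1 in the library DMSO_siNT 4-2V (diamonds) and range of the other 5 DMSO_siNT libraries (bars), both divided by the mean of those 5, on a log2 axis. HOXB7 and HOXC8 lie above 6 times that mean and HOXB8 lies at 0.32 times, outside the range of the others.

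The comparison of 4OHT_siSMARCA4 with 4OHT_siNT asks what the loss of SMARCA4 did to HOX expression in senescent cells. HOXB4 rose and HOXB8 fell, 2 of 16 genes where 10.6% of all tested genes were called (4.99% higher and 5.65% lower). The median log2 fold change of the 16 was 0.04, beside 0.01 over all genes. The groups did not overlap for 1 of the 16, HOXB8, against 11.4% of all genes. The other 14 ranged in log2 fold change from -0.55 (HOXA2) to 0.68 (HOXA5), with adjusted p from 0.084 upwards. Although this contrast holds no DMSO library, all groups share 1 estimate of the spread, and without 4-2V the count was 4 of 16, with 24.6% of all tested genes called.

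HOXB4 went from 8.03, 8.60 and 10.4 CPM in 4OHT_siNT to 10.2, 16.6 and 23.2 CPM in 4OHT_siSMARCA4. The lowest knockdown library just reached into the control range. The log2 fold change was 0.92 ± 0.18 (adjusted p = 0.0025), 1.89 times the level in 4OHT_siNT. HOXB8 went from 7.85, 8.71 and 10.2 CPM to 4.41, 4.73 and 6.79 CPM, with every knockdown library below every 4OHT_siNT library. Its log2 fold change was -0.75 ± 0.21 (adjusted p = 0.026), or 59.5% of the level. HOXB4, lower with 4OHT, was thus higher after the knockdown, and HOXB8 was lower after the knockdown without a call for 4OHT. Both contrasts use the same 4OHT_siNT libraries.

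HOXB4 levels after the knockdown are also given by set name, a split that was not tested. The 3 V libraries lay between 10.2 and 13.9 CPM, the 2 VM libraries at 19.3 and 23.2 CPM and the unlabelled library at 22.5 CPM, and as 4OHT_siNT had no V library here, a V-only value cannot be had. With the VM sets alone the log2 fold change of HOXB4 was 1.24 (adjusted p = 2.3e-05) and that of HOXB8 was -0.91 (adjusted p = 0.002). SMARCA4 itself lay between 92.7 and 141 CPM in the V and between 70.4 and 87.0 CPM in the VM knockdown libraries, with the unlabelled one at 78.8 CPM, and its part in the levels of HOXB4 was not tested. HOXB8 did not split this way, with 4.41 to 6.79 CPM in V, 4.70 to 4.75 CPM in VM and 4.6 CPM in the unlabelled library.

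**Figure D5:**
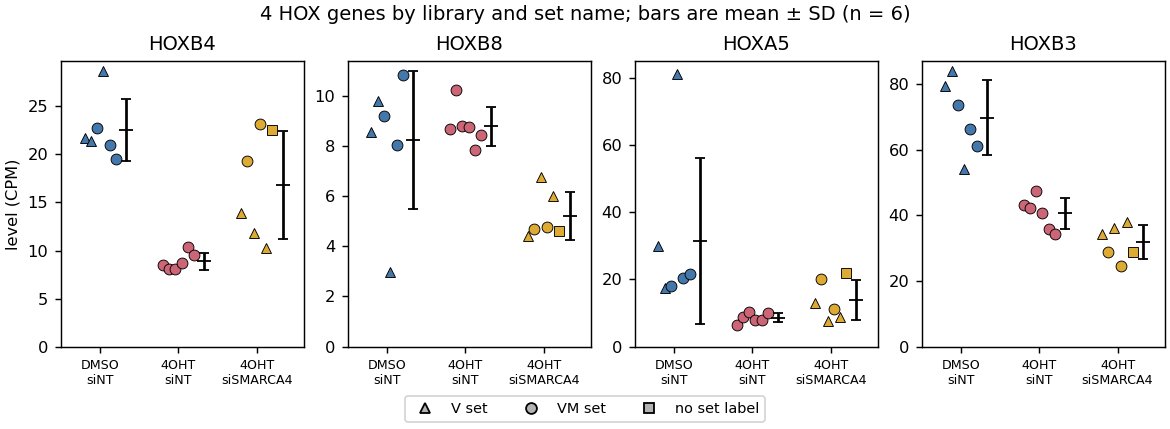
Level in CPM of HOXB4, HOXB8, HOXA5 and HOXB3 in each library of the 3 groups, with the set letters as symbols (triangle V, circle VM, square no set label) and the mean and SD of 6 libraries as bars. In 4OHT_siSMARCA4 the V libraries of HOXB4 (10.2 to 13.9 CPM) lie below the VM and unlabelled ones (19.3 to 23.2 CPM), while for HOXB8 the 6 libraries lie below those of 4OHT_siNT.

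HOXA5, HOXB3 and HOXB7 were without a call in the edgeR fit of all libraries and gained one in some subsets. HOXA5 was at a log2 fold change of 0.68 (adjusted p = 0.24) in all libraries, at 0.86 (adjusted p = 0.0074) with the VM sets alone and at 0.67 (adjusted p = 0.033) without DMSO_siNT 4-2V. Its knockdown libraries ranged from 7.63 to 13.1 CPM in V, from 11.2 to 20.2 CPM in VM, and the unlabelled one was at 22.0 CPM, so that 4 of the 6 lay above the 4OHT_siNT range of 6.48 to 10.2 CPM. HOXB3 was at -0.35 (adjusted p = 0.084), at -0.62 (adjusted p = 0.0049) in VM alone and at -0.36 (adjusted p = 0.022) without 4-2V. HOXB7 was at 0.40 (adjusted p = 0.61) and at 0.66 (adjusted p = 0.023) in VM alone.

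The calls of HOXB4 and HOXB8 were made with siRNA number 2 alone and not with number 4 alone. The fit with number 4 alone has DMSO_siNT 4-2V in its shared estimate of the spread, and the part of that library was not tested. With siRNA number 2 alone, HOXB4 was at 1.17 (adjusted p = 0.00032) and HOXB8 at -1.02 (adjusted p = 0.00045). With number 4 alone they were at 0.63 and -0.53 with adjusted p of 0.52 and 0.70, and in that fit 4 genes of the whole table were called and 0 of 17 HOX genes, 1 of which had an unadjusted p under 0.05. A direct test of the difference between the siRNAs called no HOX gene. In the edgeR fit with 6 levels, 0 of 17 HOX genes differed between siSMARCA4_4 and siSMARCA4_2 (2 with an unadjusted p under 0.05, 0.00732% of all genes called), 0 of 17 between the control siRNAs in 4OHT (0 with an unadjusted p under 0.05, 0.0732% called) and 0 of 17 between them in DMSO (7 with an unadjusted p under 0.05, 0.0512% called). For the 4OHT effect with siNT 4 minus that with siNT 2, 0 of 17 were called (0% of all genes). Of the 17, 6 had an unadjusted p under 0.05. The number 4 libraries of DMSO_siNT include 4-2V, and its part in these 7 and 6 genes was not tested. The share of all genes under an unadjusted p of 0.05 is not given here, so such counts do not set HOX genes apart. The knockdown effect by number 4 minus that by number 2 was -0.54 ± 0.36 for HOXB4 and 0.49 ± 0.41 for HOXB8. Their unadjusted p in this edgeR test were 0.15 and 0.25, so a difference between the siRNAs was not shown for them. Of the 17 HOX genes 0 were called (0.0146% of all genes) and 1, HOXC6, had an unadjusted p under 0.05.

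The comparison of 4OHT_siSMARCA4 with DMSO_siNT shares libraries with both contrasts above and is given for the levels themselves. Of the HOX genes, 9 were lower and HOXB2 was higher, 10 of 16 where 50.5% of all genes were called (27.3% lower, 23.3% higher), and the median log2 fold change was -0.73 beside -0.04 over all genes. Without 4-2V, 8 were lower and 2 higher, with 59.1% of all tested genes called. The groups did not overlap for 6 of the 16, against 29.6% of all genes. HOXA2 was at -2.17 ± 0.33, HOXA3 at -1.93 ± 0.28, HOXA7 at -1.86 ± 0.34 and HOXA4 at -1.09 ± 0.17, each with an adjusted p of 0.00013 or less. Without 4-2V these 4 were at -2.16, -1.62, -1.5 and -0.99. HOXC8 was at -2.27 ± 0.45 (adjusted p = 0.00032) and HOXB3 at -1.14 ± 0.13 (adjusted p = 3.8e-07), the latter at -1.20 without 4-2V. HOXA5 was at -1.18 ± 0.35 (adjusted p = 0.0082), with knockdown values of 7.63, 12.2 and 22.0 CPM that overlapped those of DMSO_siNT, and HOXC6, at 0.505, 1.36 and 2.67 CPM, was at -0.80 ± 0.32 (adjusted p = 0.043). HOXB8 was at -0.67 ± 0.21 (adjusted p = 0.012), and at -0.83 without 4-2V. The call of HOXB2 was lost in 6 of 12 alternatives other than leaving out 1 library (adjusted p up to 0.28) and that of HOXB8 in 3 of 12 (adjusted p up to 0.65). HOXC6 lost its call in 6 of 11 such alternatives (adjusted p up to 0.65) and in 11 of the 18 fits without 1 library: DMSO_siNT 2-2VM, 4-2V, 4-2VM or 4-3VM, 4OHT_siNT 2-2VM, 2-3VM or 4-2VM, or the knockdown libraries 2-3V, 4-2V, 4-2VM or 4-3V, with log2 fold changes from -0.83 to -0.59.

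HOXB4 was the gene that left the list of lower genes, at -0.42 ± 0.18 (adjusted p = 0.052), or -0.35 without 4-2V. By set the difference was large: it was -0.99 (adjusted p = 0.022) with the V sets alone and -0.01 (adjusted p = 0.97) with the VM sets alone. HOXA5 went the same way, with -2.12 (adjusted p = 0.04) in V and -0.37 (adjusted p = 0.21) in VM, where the V controls include 4-2V. Without 4-2V, HOXA5 was at -0.65 (adjusted p = 0.017), HOXC8 at -1.42 (adjusted p = 1.2e-05), HOXB2 at 0.35 (adjusted p = 0.0034) and HOXC6 at -0.73 (adjusted p = 0.056), while HOXB5 was called higher at 0.25 (adjusted p = 0.036). HOXA2, HOXA3, HOXA4, HOXA7 and HOXB3 were called lower in both the V and the VM sets.

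Genes under the count filter held a few counts that differed between groups. HOXA11, a gene of limb and uterus, had 2 to 4 counts in each of the 6 libraries of 4OHT_siNT and 0 in all DMSO_siNT libraries. HOXB9 had 8, 6, 6, 0, 3 and 1 counts in 4OHT_siNT and 0 to 1 in DMSO_siNT. At such counts no fold change is given, and both were called higher in 4OHT_siNT only when the filter on low counts was left out.

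Of 18 long non-coding RNAs of the clusters that were listed, 16 were in the table and 3 could be tested, HOTAIRM1 (in HOXA), HOXB-AS1 and HOXB-AS3, and these 3 were called lower in 4OHT_siNT than in DMSO_siNT, where 28.9% of all tested genes were, or 2 of the 3 without 4-2V. HOXB-AS3, which runs antisense past HOXB5 and HOXB6, had 24, 27.6 and 159 CPM in DMSO_siNT and 16.1, 17.0 and 19.9 CPM in 4OHT_siNT, a log2 fold change of -1.5 ± 0.38 (adjusted p = 0.0029), and -0.66 (adjusted p = 7.5e-05) without 4-2V. HOXB-AS1 was at -1.13 ± 0.35 (adjusted p = 0.011) and HOTAIRM1 at -0.84 ± 0.29 (adjusted p = 0.021). Without 4-2V they were at -0.50 (adjusted p = 0.020) and -0.47 (adjusted p = 0.066). After the knockdown edgeR called 0 of 3, 1 of them, HOXB-AS3, at an unadjusted p under 0.05. HOXB-AS3 was at 7.19, 9.86 and 11.7 CPM, below all 4OHT_siNT libraries, with a log2 fold change of -0.86 ± 0.39 (adjusted p = 0.18), and it was called without 4-2V at -0.87 (adjusted p = 4.9e-05). DESeq2 called 0 of the 2 it gave an adjusted p for and gave none for HOXB-AS3.

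HOX cofactors of the TALE class, the PBX, MEIS and PKNOX proteins that bind DNA with HOX proteins, were tested for 8 of 9 genes. With 4OHT, 4 fell and 1 rose, 5 of 8 where 52.8% of all tested genes were called. Among them, MEIS2 went from 37.1 to 15.7 CPM (log2 fold change -1.24 ± 0.11, adjusted p = 1.6e-08), MEIS1 from 46.6 to 21.6 CPM (-1.11 ± 0.13), PBX3 was at -0.28 ± 0.10 and MEIS3 rose by 0.31 ± 0.11. Without 4-2V these 4 were at -1.28, -1.02, -0.28 and 0.43, and 5 of 8 were called (58.3% of all tested genes). After the knockdown 2 of 8 fell, where 10.6% of all tested genes were called. MEIS2 went to 10.9 CPM (-0.52 ± 0.11, adjusted p = 0.0051) and PKNOX2 from 5.65 to 3.24 CPM (-0.79 ± 0.22, adjusted p = 0.023), and in both genes the groups did not overlap. With 4OHT, PKNOX2 had been at -0.26 ± 0.21 (adjusted p = 0.32).

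Regulators of the clusters were tested for 12 of 15 genes. With 4OHT, 3 rose and 4 fell, 7 of 12 where 52.8% of all tested genes were called. KDM6B, a demethylase of the Polycomb mark on histone H3, rose from 22.1 to 78.5 CPM (log2 fold change 1.83 ± 0.15, adjusted p = 6.5e-09), RARA, a retinoic acid receptor, was at 0.89 ± 0.16 and MEN1, a partner of KMT2A, at 0.62 ± 0.22. EZH2, the methyltransferase of Polycomb complex PRC2, fell from 14 to 5.91 CPM (-1.24 ± 0.15, adjusted p = 1.5e-06), PSIP1, which ties KMT2A complexes to chromatin, fell from 62.1 to 13.9 CPM (-2.15 ± 0.24), and RARG and SUZ12 were at -0.72 ± 0.21 and -0.29 ± 0.11, the latter without a call when 4-2V was left out (-0.19, adjusted p = 0.082). Without that library KDM6B was at 1.89, RARA at 0.76, MEN1 at 0.44, EZH2 at -1.32, PSIP1 at -1.79 and RARG at -0.87. KMT2A itself was at -0.12 ± 0.20 (adjusted p = 0.64). After the knockdown 1 of 12 was called (10.6% of all tested genes): SUZ12, a subunit of PRC2, rose by 0.37 ± 0.11 (adjusted p = 0.042). Without 4-2V, 2 of 12 were called (24.6% of all tested genes), SUZ12 at 0.36 (adjusted p = 0.0045) and MEN1 at -0.31 (adjusted p = 0.03).

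Of 11 genes flanking the clusters 5 were tested, and with 4OHT 3 of them fell, where 28.9% of all tested genes were called lower. LNPK and MTX2, on either side of HOXD, and SKAP2, beside HOXA, fell, at log2 fold changes of -0.81 ± 0.10, -0.48 ± 0.12 and -0.43 ± 0.14, while SMUG1 and CALCOCO1 near HOXC were at -0.09 ± 0.11 and 0.32 ± 0.21. Without 4-2V the 3 that fell were at -0.80, -0.40 and -0.29, each still called. LNPK and MTX2 were expressed although HOXD gave 4 counts in all. After the knockdown edgeR called 0 of these 5 (2 at an unadjusted p under 0.05) and DESeq2 called 1, LNPK, higher at 0.30 (adjusted p = 0.029). Without DMSO_siNT 4-2V edgeR called 3 of the 5, SKAP2 at 0.36 (adjusted p = 0.019), LNPK at 0.30 (adjusted p = 0.026) and CALCOCO1 at -0.38 (adjusted p = 0.036), with 24.6% of all tested genes called.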

How the data were processed

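Poly(A) RNA was made into directional libraries and read as 72-base single reads, per the methods of the study. The submitters' processing notes name hg38, STAR 2.7.8a and DESeq2 1.36.0. The annotation, the counting program and its strand setting are not given in the sources used here. The authors deposited raw counts per gene, in 36 columns for 18 libraries of 2 lanes each. Lanes were summed. Of 29 labelled samples, 17 matched a column, and the others were not analysed here, among them 4OHT_siNT libraries of the V sets. One column, with a set that no title of its siRNA carries, entered its group without a set label. No 2 libraries of a group agreed within sampling noise.

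Genes were filtered with filterByExpr of edgeR 4.0.16 (minimum count 10; 13136 of 28266 kept), scaled by TMM and tested with the quasi-likelihood test in R 4.3.3, all 18 libraries in 1 fit of 3 groups without covariates. Calls were made at a Benjamini-Hochberg adjusted p under 0.05. Standard errors came from the F statistic. The siRNA contrasts used a fit of 6 levels on 13659 genes. The test was checked on simulated data. Levels per kilobase used exon lengths of the MANE transcripts of GENCODE on GRCh38. Promoter windows are from RefSeq on GRCh38.p14. Alternatives were DESeq2 1.42.0, other scalings and filters, subsets of libraries, and each library left out. Named genes were those called in any contrast and the 3 highest per kilobase. The members and lists were chosen with earlier results of these data known. A few genes and sequences are not reported here.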

Additional observations from a re-analysis of the deposited data

Results flagged for a closer look

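Among the 48 sets of 6 libraries (16 HOX genes in 3 groups, log2 CPM), the gap between the highest or lowest library and its nearest neighbour, as a share of the range of the set, passed Dixon's critical value in 7, where chance gives about 1 in 20, or 2.4 sets. Library DMSO_siNT 4-2V gave 5 of the 7. It was highest for HOXA3 (gap 0.864), HOXC8 (0.703), HOXA5 (0.650) and HOXB7 (0.644) and lowest for HOXB8 (0.766). The other 2 were HOXA7, lowest in 4OHT_siNT 2-1VM (0.728), and HOXB6, highest in 4OHT_siNT 2-2VM (0.680). The fold changes of HOXA3, HOXA5, HOXB7 and HOXC8 over DMSO_siNT are given above with and without 4-2V.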

How the results depend on the processing

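For 4OHT_siNT over DMSO_siNT, the count of HOX genes called was 10 and stayed between 8 and 12 over the other alternatives and between 10 and 12 with each library left out, and its median was -1.04, at -0.82 with siRNA number 2 only. For 4OHT_siSMARCA4 over DMSO_siNT the count of 10 stayed between 7 and 11, and between 9 and 11 with each library left out, while the median of -0.73 was -0.24 with siRNA number 2 only and -0.36 with the VM sets and the unlabelled library. For 4OHT_siSMARCA4 over 4OHT_siNT the count of 2 was 1 at an adjusted p under 0.01, 4 with only the 2 groups compared, 5 with the VM sets only, 5 with siRNA number 2 only, 0 with siRNA number 4 only and 5 with the VM sets and the unlabelled library. With DESeq2 on all libraries the count was 3, with 1 higher and 2 lower. Leaving out each library gave counts from 1 to 4. The share of all tested genes called moved with the fit too. After the knockdown it was 10.6% in the main fit and 24.6% without DMSO_siNT 4-2V. The HOX counts alone do not set HOX genes apart from other genes. The call of HOXB8 was lost without 4OHT_siNT 2-2VM or any 1 of the knockdown libraries 2-3V, 2-3VM, 4-2VM and unlabelled, and HOXA5 and HOXB3 were gained without DMSO_siNT 4-2V.

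Whether the set names pair the libraries could not be settled, since only 3 sets (2V, 2VM and 3VM) were shared between groups. In 7 comparisons of a set between 2 groups, the deviations of same-named libraries from their group means had correlations from -0.23 to 0.27. Of these, 3 were above 0.1, all of set 3VM, and set 2V includes DMSO_siNT 4-2V. A replicate block on the set leaves out the unlabelled library and tested 18 HOX genes. It gave 1 called after the knockdown (HOXB4), 9 in 4OHT_siNT over DMSO_siNT and 7 in 4OHT_siSMARCA4 over DMSO_siNT. The share of all genes called in the block fit is not given here, so its counts do not set HOX genes apart. Of 644 values of called genes over all alternatives 599 kept direction and call, 45 lost the call and 0 changed sign. Fits on the V sets, and on the VM sets plus the unlabelled library, were added once the data had been seen. Depth limits what can be said of HOXA2 and of the 23 HOX genes that were not tested.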
